A study of Mus musculus with 2 samples.

Results

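The high-mitochondrial barcodes of the aortic arch are those in which more than 30% of UMIs (unique molecular identifiers, each standing for 1 captured RNA molecule) came from genes of the mitochondrial genome, here the 13 genes whose symbol starts with mt-. They were chosen among barcodes with at least 200 detected genes and at least 200 UMIs, and they numbered 2299 of 10234 barcodes in the ND library and 7215 of 14225 in the HFD library, or 9514 of 24459 in all. The barcodes with at least 200 genes and at most 30% mitochondrial UMIs, called kept barcodes here, numbered 5416 in ND and 2739 in HFD. Since the mitochondrial share chose the members, that share and each comparison of members with kept barcodes is a description. Single-cell RNA sequencing by a droplet method was made of 1 library per diet, each from 2 pooled aortas of male Apoe-/- C57BL/6 mice of 16 weeks of age, whose arch was digested with enzymes after local perfusion. ND mice received a chow diet and HFD mice a high-fat and high-cholesterol diet from weaning on, and both groups lacked Apoe, the apolipoprotein that clears lipoprotein remnants. Neither diet was replicated, so nothing was tested, diet and library cannot be told apart, and pooled mice cannot be separated. Intervals in parentheses are exact at 95% and cover counting error only.

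Mitochondrial DNA encodes 13 proteins of the respiratory chain and of ATP synthase, whose messages are made and translated inside the organelle, while the other proteins of mitochondria are encoded in the nucleus. In droplet data, a high mitochondrial share is widely read as a sign of a damaged cell whose cytosolic RNA has leaked out, and such barcodes are commonly removed. A high share is also known in cells that are rich in mitochondria, such as cardiomyocytes and brown adipocytes, and in cells that hold little other RNA, such as neutrophils and small lymphocytes. In a sum over barcodes, fewer cells of a type and less RNA per cell cannot be told apart.

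The mitochondrial RNA itself had nearly the same make-up in members and in kept barcodes. mt-Co2, a catalytic subunit of cytochrome c oxidase, took 14.54% of mitochondrial UMIs in ND members and 14.58% in ND kept barcodes, and 14.96% against 15.17% in HFD. mt-Co3, a further subunit of this enzyme, took 16.9% against 16.2% in ND and 18.2% against 17.4% in HFD. mt-Nd3, a small subunit of complex I, was the gene with the largest difference among the abundant ones, with log2 ratios of -0.24 (-0.26 to -0.22) in ND and -0.26 (-0.27 to -0.24) in HFD. mt-Nd1 and mt-Nd4, also of complex I, were lower by the same sign in both libraries, with log2 ratios of -0.13 and -0.09 in ND and -0.13 and -0.12 in HFD. mt-Nd6, the complex I gene that lies on the opposite strand of the circle, was higher in members with log2 ratios of 0.24 and 0.33, and it took only 0.0718% and 0.102% of their mitochondrial UMIs. No mitochondrial gene was past 1.5-fold in either library.

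Pairs of these genes share bases, which limits what a count of a single one can mean. The stretches where mt-Atp8 runs into mt-Atp6, both subunits of ATP synthase, and where mt-Nd4l runs into mt-Nd4, both of complex I, are given as they stand in GENCODE M21 transcripts on GRCm38, 5′ to 3′, with the bases that belong to both genes in capitals. The first is chrM:7907-7989 on the plus strand, with 43 shared coding bases, and the second is chrM:10147-10193 on the plus strand, with 7.
mt-Atp8 into mt-Atp6: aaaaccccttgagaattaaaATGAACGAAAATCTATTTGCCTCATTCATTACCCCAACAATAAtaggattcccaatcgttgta
mt-Nd4l into mt-Nd4: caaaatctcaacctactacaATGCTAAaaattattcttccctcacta
In each, the capitals open with the start codon ATG of the downstream gene and end with the stop codon TAA of the upstream gene. How the counting split reads between overlapping genes is not stated in what was read here. mt-Atp6 took 19.4% of mitochondrial UMIs in ND members and 19.2% in kept barcodes, and 20.47% against 20.02% in HFD, while mt-Atp8 took 0.552% against 0.584% and 0.646% against 0.657%.

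Members were 29.8% (28.8 to 30.8) of ND barcodes with at least 200 genes and 72.5% (71.6 to 73.4) of HFD ones, which the histogram of mitochondrial shares shows. The median share among members was 46.9% in ND and 51.3% in HFD, with a highest value of 87.2% and 91.5%. They held 10.3% of all 32806635 UMIs of the ND library and 40.8% of all 41305446 UMIs of the HFD library. In HFD, members thus outnumbered kept barcodes and held nearly as many UMIs as these, which had 41.6%.

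**Figure D1:**
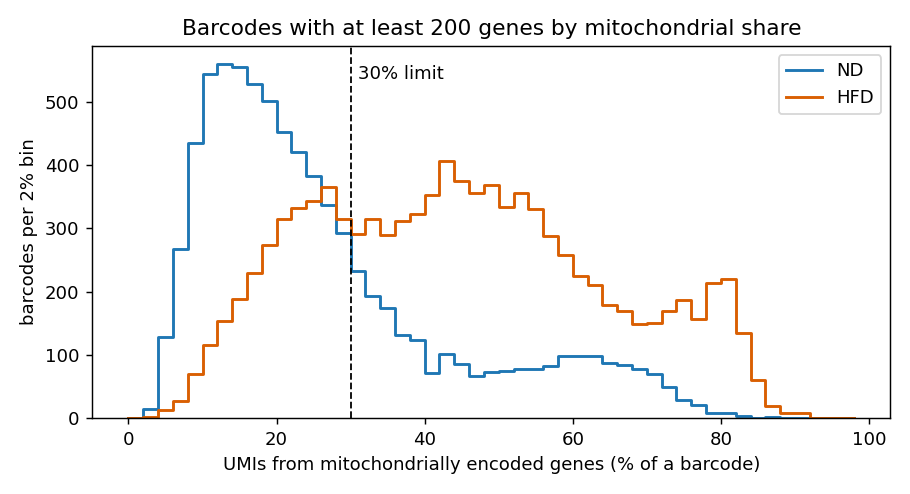
Number of barcodes per 2% bin (vertical axis) against the percent of UMIs from mitochondrially encoded genes (horizontal axis) for ND and HFD barcodes with at least 200 genes, with the 30% limit as a dashed line. ND has its main peak left of the limit and 29.8% of barcodes right of it, while HFD has 72.5% right of it.

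Members held far fewer non-mitochondrial UMIs than kept barcodes and about as many mitochondrial ones. The median member held 604 mitochondrial UMIs in ND and 1115 in HFD, against 626 and 1171 in kept barcodes. Non-mitochondrial UMIs had a median of 628 in ND members against 3068 in kept barcodes, and of 1044 in HFD members against 4149. Detected genes had a median of 460 against 1478 and of 691 against 1847. Across bands of mitochondrial share, the median of non-mitochondrial UMIs went from 8146.5 in ND barcodes under 10% to 260 in those over 70%, and from 14625 to 315 in HFD. Over the same bands, the median of mitochondrial UMIs stayed between 548 and 747 in ND and between 1100 and 1301 in HFD. The deposited barcodes set a limit on this result: the lowest total of any barcode was 633 UMIs in ND and 1162 in HFD, so a barcode with few other UMIs could be in the files only with many mitochondrial ones. The part of this floor in the flat mitochondrial medians was not tested.

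**Figure D2:**
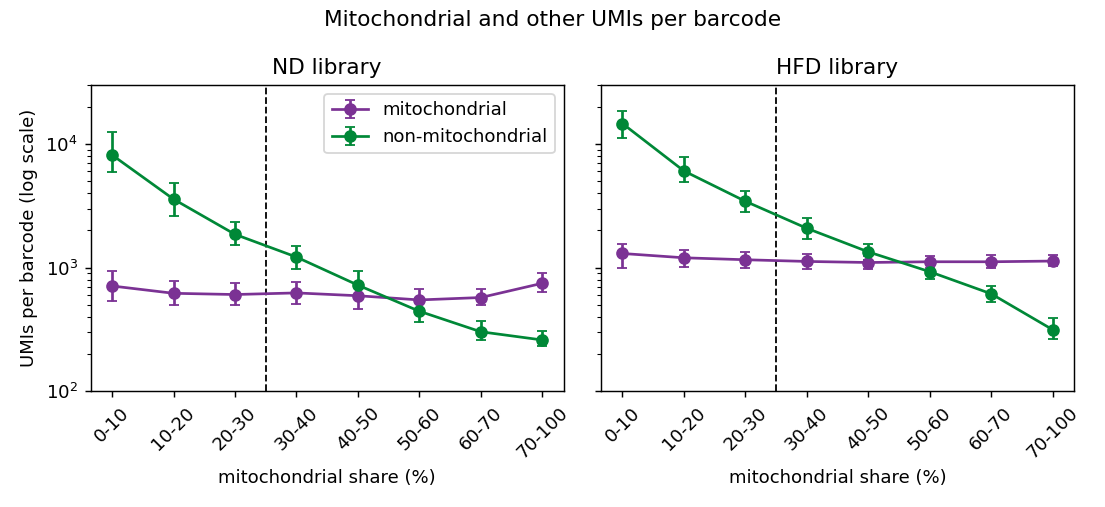
Median UMIs per barcode (vertical log axis) by band of mitochondrial share in percent (horizontal axis), for mitochondrial and for other genes, with bars from the lower to the upper quartile and a dashed line at the 30% limit. Non-mitochondrial UMIs go down across all bands of both libraries, to 260 in ND and 315 in HFD, while mitochondrial UMIs stay near 600 in ND and near 1100 in HFD.

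No step was seen at the limit itself. In ND, the 292 barcodes just outside, at 28% to 30%, held a median of 1463 non-mitochondrial UMIs, and the 232 just inside, at 30% to 32%, held 1367. In HFD, the 314 just outside held 2864 and the 292 just inside 2602.5. Of the 39 barcode sequences that both libraries share, 9 were members in both.

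Non-mitochondrial RNA of members, summed over barcodes and given as UMIs in 1000000 non-mitochondrial UMIs (CPM), was close to that of kept barcodes. The sums rested on 1853321 non-mitochondrial UMIs in ND members and 8482506 in HFD members. Over 10768 genes with at least 100 UMIs in each library, Pearson's r of log2(CPM + 1) between members and kept barcodes was 0.955 in ND and 0.956 in HFD, a description across genes that share a library and are not independent. In all, 82.1% of genes in ND and 82.4% in HFD lay within 1.5-fold, with a median log2 ratio of 0.07 and 0.09. Past 2-fold, 216 genes (2.01%) were higher and 364 (3.38%) lower in ND members, and 225 (2.09%) were higher and 347 (3.22%) lower in HFD members. In both libraries, 120 genes (1.11%) were higher and 160 (1.49%) lower, and 1 (0.00929%) and 2 (0.0186%) went opposite ways. Higher genes made up 42.9% of these calls, and 30.0% when only members over 50% were taken, 32.6% when each barcode had equal weight and 4.10% when all UMIs formed the denominator, a scale that moves the median log2 ratio to -0.58 and -0.60.

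The genes with the most UMIs in members of both libraries were Malat1, Fabp4, Tmsb4x and Actb, joined by Rps29 in ND and by Hbb-bs in HFD. Malat1, a long noncoding RNA held in the nucleus, stood at 20089 CPM in ND members against 22760 in kept barcodes and at 19702 against 19497 in HFD. Fabp4, the fatty acid binding protein of adipocytes and capillary endothelium, stood at 17048 against 13618 and at 31200 against 19512. Tmsb4x, which binds actin monomers, and Actb, an actin itself, had log2 ratios of 0.07 and 0.17 in ND and of -0.27 and -0.29 in HFD. Apoe, the gene deleted in all of these mice, still had UMIs, at 78.8 against 53.8 CPM in ND and 86.3 against 60.5 in HFD, and no library of mice with the gene is at hand for comparison.

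The genes that stood furthest above kept barcodes are known from 2 kinds of leukocytes. By the smaller of the log2 ratios of both libraries, the 10 leading genes were Rag1, Acod1, Themis, Sla2, Il1f9, Ccr9, Trem1, Cxcr2, Slfn4 and Gm5483, with ratios from 2.53 to 4.21 in ND and from 2.47 to 3.30 in HFD. Rag1, Themis, Ccr9 and Sla2 are known from developing or mature T cells, and Acod1, Il1f9, Trem1, Cxcr2 and Slfn4 from neutrophils and other activated myeloid cells. Ptprc, the leukocyte antigen CD45, was higher in members at 366.9 against 191 CPM in ND and 243 against 154 in HFD.

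All 7 neutrophil markers were past 2-fold higher in members of both libraries, against 2.01% of all genes in ND and 2.09% in HFD. Their summed level was 5306 CPM in ND members against 1533 in kept barcodes, a log2 ratio of 1.79 (1.76 to 1.82), and 3602 against 549 in HFD, a log2 ratio of 2.72 (2.68 to 2.75). S100a9 and S100a8, which together form the calcium-binding protein calprotectin of the neutrophil cytosol, carried most of it. S100a9 (chr3:90692632-90695721, GRCm38) stood at 2403 against 681 CPM in ND and at 1729 against 241 in HFD. Cxcr2, the chemokine receptor that leads neutrophils to inflamed tissue, stood at 24.3 against 4.19 and at 10.3 against 1.29. These UMIs sat in few barcodes: 98.8% of them in ND members and 97.4% in HFD members lay in the neutrophil-like cluster, which held 3.22% and 2.73% of members. In ND the list was highest at a share of 30% to 40%, with 7607 CPM, and at 50% to 60% it was at 281. Members over 50% alone therefore gave a log2 ratio of -0.68 in ND and 2.73 in HFD, and with equal weight for each barcode the ND ratio was 0.40.

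The T and NK markers were higher in members as well, with 9 of 11 tested past 2-fold in ND and 10 in HFD, against 2.01% and 2.09% of all genes. Their summed level was 796 against 287 CPM in ND, a log2 ratio of 1.47 (1.39 to 1.55), and 675 against 183 in HFD, a log2 ratio of 1.89 (1.82 to 1.95). With equal weight for each barcode these ratios were 0.29 and 2.12, and with members over 50% alone 0.52 and 2.42. Trbc2, a constant segment of the T cell receptor beta chain, stood at 179 against 49.9 CPM and 163 against 40.0, and Nkg7, a granule protein of cytotoxic cells, at 57.7 against 26.8 and 75.8 against 14.0.

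Rag1, which cuts the receptor genes of developing lymphocytes, had the largest ratio of all genes by this ranking. It (chr2:101638282-101649501, GRCm38) stood at 49.1 against 2.65 CPM in ND, a log2 ratio of 4.21 (3.73 to 4.70), and at 42.2 against 4.30 in HFD, a log2 ratio of 3.30 (2.90 to 3.71). Ccr9, a homing receptor of thymocytes and gut T cells, stood at 36.1 against 3.21 and at 31.9 against 5.23, and Themis, which tunes receptor signals during T cell selection, at 29.7 against 3.76 and at 22.5 against 3.01. Of the Rag1-led T and NK-like cluster, whose leading genes also include Dntt, Cd8b1, Myb and Tcf7, 71.9% of 89 ND barcodes and 98.9% of 262 HFD barcodes were members. Such genes are textbook markers of immature T cells of the thymus. In HFD, Rag1 went from 2.34 CPM under 10% to 249.6 at 60% to 70%, resting on 4 and 151 UMIs.

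B lineage RNA split into a part that was lower and a part that was not. The list was at 3394 against 5165 CPM in ND and at 393 against 3849 in HFD, log2 ratios of -0.61 and -3.29. In HFD the median over its 7 tested genes had the opposite sign, 1.34, since 5 were past 2-fold higher and 2 lower, against 2.09% and 3.22% of all genes. Igkc and Ighm, immunoglobulin chains, had HFD log2 ratios of -4.32 (-4.41 to -4.24) and -2.99 (-3.08 to -2.89), whereas Cd79a, the signalling chain of the B cell receptor, had 1.34. Igha, the IgA heavy chain, stood furthest below kept barcodes of all genes by the ranking, at 69.1 against 722 CPM in ND and 10.3 against 872 in HFD. Igha led a B-like cluster together with Jchain and Mzb1, genes of antibody secretion, of which 1 of 24 ND barcodes and 0 of 13 HFD barcodes were members. Of the Cd79a-led cluster, 15.02% of 646 ND barcodes and 86.1% of 108 HFD barcodes were members.

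**Figure D3:**
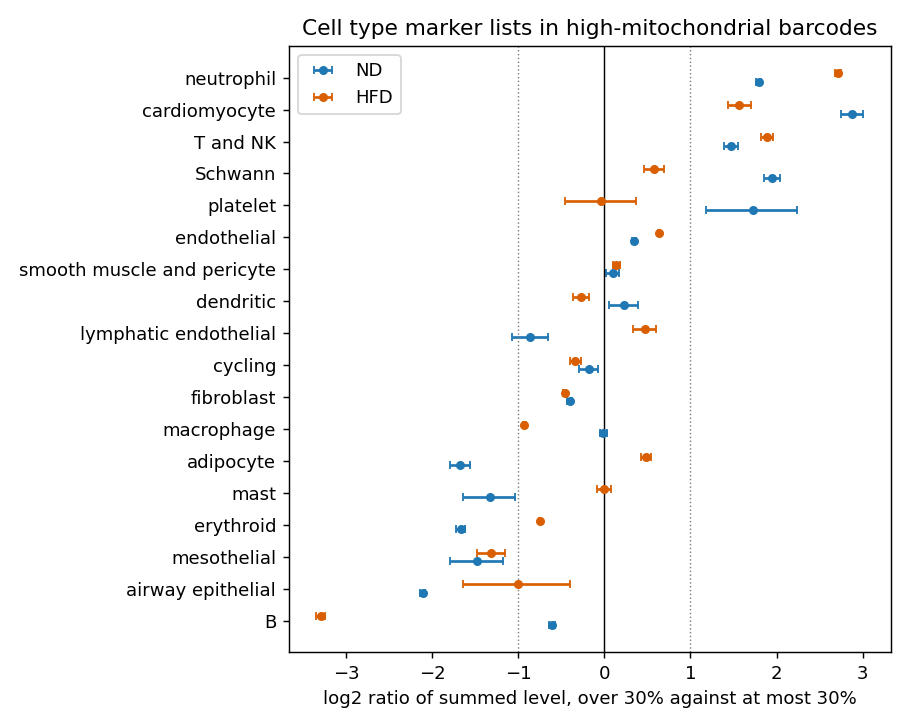
Log2 ratio of the summed level of each marker list except skeletal muscle in members over that in kept barcodes (horizontal axis), 1 row per list, for ND and HFD, with exact 95% intervals for counting error and dotted lines at 2-fold. Neutrophil, cardiomyocyte and T and NK lists lie right of the upper dotted line in both libraries, with log2 ratios from 1.47 to 2.88, and mesothelial and airway lists lie left of or at the lower one.

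Macrophage RNA stood at the level of kept barcodes in ND members and below it in HFD members, and the difference between the libraries was not tested. The list stood at 2827 against 2852 CPM in ND, a log2 ratio of -0.01 (-0.05 to 0.03), and at 3828 against 7279 in HFD, a log2 ratio of -0.93 (-0.95 to -0.91). Lyz2, the lysozyme of myeloid cells, had ratios of -0.40 and -1.22, and C1qa, a complement chain made by resident macrophages, 0.04 and -0.82. Gpnmb and Spp1, known from lipid-laden macrophages of plaques, were lower in members, at 158 against 552 CPM and 250.4 against 769 in HFD. Of the Spp1-led macrophage-like cluster 18.2% of 77 ND barcodes and 43.7% of 373 HFD barcodes were members, below the share of the whole library in each case. The dendritic list had ratios of 0.22 and -0.27, and its members differed: Zbtb46, a transcription factor that endothelial cells also express, had 0.66 and 0.69, and Cd209a, a lectin of monocyte-derived dendritic cells, had -1.21 and -2.10. Mast cell markers, proteases such as Mcpt4 and Cma1, had a list ratio of -1.33 in ND from 94 UMIs and of 0.00 in HFD.

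Endothelial RNA was slightly higher in members than in kept barcodes of both libraries. The list stood at 10192 against 8015 CPM in ND, a log2 ratio of 0.35 (0.33 to 0.37), and at 13016 against 8392 in HFD, a log2 ratio of 0.63 (0.62 to 0.65). Of 12 tested markers, 0 were past 2-fold in ND and 1 was past it, lower, in HFD. Among the higher markers, Cldn5, a tight junction protein, had ratios of 0.57 and 0.90. Gpihbp1, which carries lipoprotein lipase across capillary endothelium, had 0.56 and 0.90. Cdh5, the junctional cadherin of all endothelium, had 0.30 (0.24 to 0.37) and 0.52 (0.48 to 0.55). Pecam1, the adhesion molecule CD31, had -0.36 (-0.45 to -0.28) in ND and 0.15 (0.11 to 0.19) in HFD. Vwf, the clotting factor stored by endothelium of larger vessels, was the marker past 2-fold lower in HFD, at 30.7 against 164 CPM, and it stood at 103 against 187 in ND.

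Several of the genes furthest below kept barcodes are known from the lining of arteries and large vessels. Selp, the adhesion molecule P-selectin, stood at 5.40 against 27.4 CPM in ND and 3.54 against 50.7 in HFD. Slco2a1, a prostaglandin transporter, stood at 9.71 against 46.8 and 9.78 against 81.4, and Tmem158 at 24.3 against 116 and 16.1 against 73.5. Others of these 10 genes, beside Igha, were Prrt4, Frzb, Hist1h2ap, Adh7 and Tubb3, with 1 to 29 UMIs in members of either library. Cytl1, a secreted protein that leads the cluster of this kind and was chosen here after its values were seen, stood at 103 against 620 CPM in ND, a log2 ratio of -2.60 (-2.81 to -2.39), and at 77.3 against 320.2 in HFD, a log2 ratio of -2.05 (-2.17 to -1.93). Cd36, the fatty acid receptor of capillary endothelium, went the other way, with ratios of 0.52 and 0.77.

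**Figure D4:**
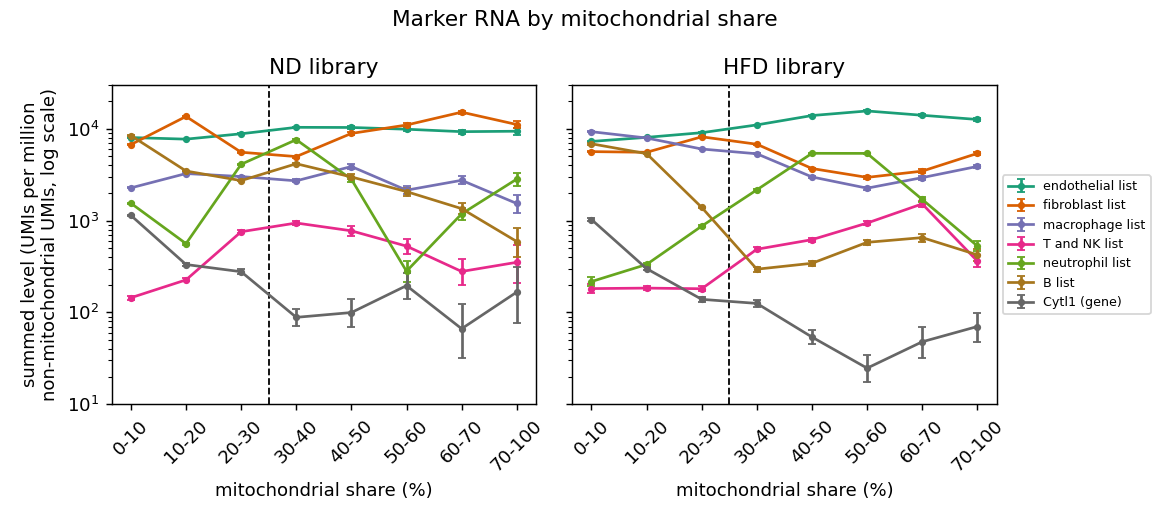
Summed CPM of 6 marker lists and of Cytl1 (vertical log axis) by band of mitochondrial share in percent (horizontal axis) in ND and HFD, with exact 95% intervals for counting error and a dashed line at the 30% limit. Cytl1 is highest under 10%, at 1139 CPM in ND and 1028 in HFD, the T and NK list peaks at 1521 CPM at 60% to 70% in HFD, and the neutrophil list peaks at 7607 CPM at 30% to 40% in ND.

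Markers of heart muscle were the list with the largest ratio in ND. All 8 tested cardiomyocyte genes were past 2-fold higher in members of both libraries, against 1.11% of all genes. Their sum stood at 422 against 57.5 CPM in ND, a log2 ratio of 2.88 (2.747 to 3.004), and at 142 against 48.0 in HFD, a log2 ratio of 1.57 (1.43 to 1.71). Myl7 and Nppa, atrial myosin light chain and natriuretic peptide, stood at 81.5 against 11.7 and 57.2 against 5.52 CPM in ND, and at 9.55 against 4.01 and 17.2 against 5.52 in HFD. By band, the list went from 26.8 CPM under 10% to 1258 over 70% in ND and from 12.3 to 613 in HFD. It stood at 1131 CPM in ND barcodes with under 200 genes and at 219 in HFD ones. No cluster was named cardiomyocyte-like. A cluster led by Mb, the oxygen store of heart and slow muscle, and Tnni3, the cardiac troponin inhibitor, stayed unnamed. Among its leading genes, 1 cardiomyocyte marker, Tnni3, tied with 1 endothelial marker, Kdr, and Mb was in neither list. Of this cluster, 60.2% of 161 ND barcodes and 92.3% of 365 HFD barcodes were members.

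Schwann cell markers, of the cells that ensheath nerves, stood at 696 against 180 CPM in ND, a log2 ratio of 1.95 (1.86 to 2.04), and at 139 against 93.1 in HFD, a log2 ratio of 0.58 (0.47 to 0.69). Mbp, a protein of myelin, stood at 215 against 38.1 CPM in ND and at 23.5 against 16.5 in HFD. Skeletal muscle genes had ratios of 0.92 (0.50 to 1.32) and 0.29 (0.01 to 0.57), on 31.8 and 21.6 CPM in members. Platelet genes had 39 UMIs in ND members and 80 in HFD members, with list ratios of 1.72 (1.18 to 2.24) and -0.04 (-0.45 to 0.37).

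The smooth muscle list stood close to kept barcodes, and the fibroblast list was lower in sum. The smooth muscle and pericyte list had ratios of 0.10 (0.02 to 0.17) and 0.14 (0.10 to 0.18), within which Rgs5, a pericyte gene, had 0.96 and 0.74, and Acta2, the actin of contractile cells, had -0.51 and -1.26. The fibroblast list had -0.40 (-0.43 to -0.38) and -0.46 (-0.48 to -0.44), with 1 of 12 markers past 2-fold lower in ND and 5 in HFD, against 3.38% and 3.22% of all genes. Dcn, a collagen-binding proteoglycan, stood at 828 against 1824 CPM in ND and 945 against 1253 in HFD. In ND, the list went from 4979 CPM at 30% to 40% up to 15162 at 60% to 70%. In HFD it went from 6783 at 30% to 40% down to 2955 at 50% to 60%. The share of fibroblast-like barcodes in HFD was 12.1% at 30% to 40%, 4.54% at 50% to 60% and 9.40% over 70%. In ND this share was 7.14%, 22.2% and 21.5% in the same bands. The lymphatic endothelial list had -0.86 (-1.07 to -0.66) in ND and 0.47 (0.34 to 0.60) in HFD, on 107.9 and 104.8 CPM.

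Lower lists were those of the mesothelium, the airway, red cells and dividing cells. Of 8 mesothelial markers, 6 were past 2-fold lower in each library, against 3.38% of all genes in ND and 3.22% in HFD, and the list had ratios of -1.47 (-1.79 to -1.17) and -1.31 (-1.47 to -1.15). Upk3b, a uroplakin of this lining, stood at 3.24 against 20.9 CPM and 11.9 against 36.5. With equal weight for each barcode these ratios were -0.29 and -0.74. Airway secretory genes, led by Scgb1a1 of club cells, stood at 4663 against 20110 CPM in ND, a ratio of -2.11 (-2.14 to -2.08), and had 30 UMIs in all HFD members. Outside the airway-like cluster, however, this list stood at 1646 CPM in ND members against 298 in ND kept barcodes, and with equal weight for each barcode the ND ratio over all members was -0.02. Haemoglobin genes and other erythroid markers had ratios of -1.67 (-1.72 to -1.61) and -0.75 (-0.76 to -0.74). Barcodes with an erythroid UMI went the other way at equal depth. After each barcode was thinned to 200 non-mitochondrial UMIs they were 15.2% of members and 4.84% of kept barcodes in ND, and 47.1% and 22.9% in HFD. Unthinned, they were 35.9% and 43.6% in ND, and 92.5% and 92.8% in HFD. For the airway list, the thinned ND shares also went the other way, at 26.3% and 8.57%. For the mesothelial and cycling lists they did not, at 0.913% and 0.960%, and 6.39% and 7.48%. Top2a and Ube2c, needed for the separation of chromosomes in mitosis, had ratios of -1.14 and -1.58 in ND and of -1.14 and -1.61 in HFD, and 5 and 7 of 9 cycling genes were past 2-fold lower, beside the same 3.38% and 3.22% of all genes. Hmgb2, which held the most UMIs of this list, had 0.02 in both, so that the list's sum had only -0.18 and -0.34.

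The summed adipocyte list had opposite signs in the 2 libraries, and the ND value rested on few barcodes. The list stood at 329 against 1049 CPM in ND, a log2 ratio of -1.67 (-1.79 to -1.56), and at 543 against 389 in HFD, a log2 ratio of 0.48 (0.42 to 0.54). Cfd, the complement factor adipsin, stood at 125 against 478 CPM in ND and 67.1 against 66.3 in HFD. Ucp1, the heat-producing uncoupler of brown fat, was higher in both, at 24.3 against 13.1 and 214 against 89.1. A cluster led by Ucp1 and Cox8b stayed unnamed, since 1 adipocyte marker, Ucp1, tied with 1 endothelial marker, Cldn5. Of the Ucp1-led cluster, 13.9% of 245 ND barcodes and 71.4% of 560 HFD barcodes were members, against 29.8% and 72.5% of the whole libraries. Of the Cfd-led adipocyte-like cluster, 3 of 41 ND barcodes and 14 of 26 HFD barcodes were members. In ND kept barcodes this cluster held 89.3% of the list's UMIs in 0.702% of barcodes. Outside it the list was higher in members of both libraries, at 258 against 115 CPM in ND and 326 against 164 in HFD. This cluster had the most mitochondrial UMIs per barcode of all clusters, with a median of 3335 in ND and 3009.5 in HFD.

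Genes for stress and cell death stood close to kept barcodes. Of 14 genes of apoptosis and p53 signalling, 0 were past 2-fold higher in either library and 1 was lower in ND, and the list had ratios of 0.05 (0.00 to 0.09) and 0.28 (0.26 to 0.30). Cdkn1a, the p53-induced brake on the cell cycle, had 0.06 and 0.42, and Bax, which opens the outer mitochondrial membrane, had -0.02 and -0.15. The integrated stress response list had 0.23 (0.17 to 0.28) and 0.41 (0.38 to 0.45), with Ddit3, a factor of prolonged stress, at 0.57 and 0.52. Heat shock genes had 0.08 and 0.11, and immediate early genes, which are known to be induced by enzymatic digestion, had 0.17 and 0.22. No tested heat shock, immediate early or stress response gene of these lists was past 2-fold in either library.

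Lists of nuclear genes for mitochondria had log2 ratios from -0.22 to 0.43. The higher mitochondrial share of members was set by the rule that chose them. The 90 nuclear genes of oxidative phosphorylation summed to 15194 against 16765 CPM in ND and 16835 against 17241 in HFD, ratios of -0.14 and -0.03. The 78 genes of mitochondrial ribosomal proteins had -0.22 in both. Mitochondrial chaperones had -0.13 and -0.06, and genes of mitophagy, the removal of damaged mitochondria, 0.04 and -0.08. Genes that copy and transcribe mitochondrial DNA had 0.06 (-0.09 to 0.21) and 0.15 (0.07 to 0.24), with Polg, the mitochondrial DNA polymerase, at 0.65 and 0.72. Regulators of mitochondrial biogenesis had 0.33 and 0.43, on 175 and 186 CPM. A list of 13 abundant cytosolic messages had 0.06 and -0.34. The 95 cytosolic ribosomal protein genes had -0.24 in ND and -0.28 in HFD.

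Nuclear and ribosomal transcripts were also examined, since their levels can differ where the cytosol is lost. Malat1, Neat1, Kcnq1ot1 and Meg3, the 4 of 8 listed nuclear RNAs that the files hold, summed to ratios of -0.15 (-0.17 to -0.14) and 0.04 (0.03 to 0.05), and Neat1, the scaffold of paraspeckles, had 0.47 and 0.58. Malat1 went from 24096 CPM under 10% to 13726 at 60% to 70% in ND, whereas in HFD it went from 16683 to 20346 over the same bands, and to 12787 over 70%. Transcripts that overlap or resemble ribosomal RNA, such as Gm42418 and Gm26917, summed to ratios of 0.83 (0.78 to 0.87) and 0.45 (0.42 to 0.48). This list had its highest level in barcodes over 70%, at 7198 CPM in ND and 4902 in HFD, against 1369 and 1388 under 10%.

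To give the members cell classes, the 17669 barcodes with at least 200 genes were clustered together on non-mitochondrial genes, which gave 30 clusters, of which 27 were named by fixed markers. Names end in "-like", since they rest on markers that helped to form the clusters. The endothelial-like class held more members than any other, with 49.2% (47.1 to 51.3) of ND members and 52.2% of HFD members in 5 clusters, against 38.6% and 30.3% of kept barcodes. Fibroblast-like clusters held 16.5% and 7.43% of members, T and NK-like clusters 6.83% and 8.11%, and macrophage-like clusters 4.05% and 7.79%. The 3 unnamed clusters held 5.70% and 10.2%.

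The share of a class that lay over the limit differed widely between classes. In HFD it was 94.5% for T and NK-like, 92.9% for neutrophil-like and 82.0% for endothelial-like barcodes, above the 72.5% of the whole library, and 53.02% for fibroblast-like, 47.5% for macrophage-like and 28.6% for cycling ones. In ND it was 61.7% for dendritic-like, 46.0% for neutrophil-like and 45.7% for Schwann-like barcodes, above the 29.8% of the whole library, and 14.6% for B-like, 7.32% for adipocyte-like and 3.23% for cycling ones. T and NK-like barcodes in ND were at 30.9% (26.9 to 35.1). The filter therefore left 34 of 619 HFD T and NK-like barcodes and 15 of 212 HFD neutrophil-like barcodes among the kept ones. The dendritic-like cluster was led by Plbd1 and H2-Ab1 and its name rests on the summed level of the dendritic list. Of this list, 3 markers were detected in at least 10% of the cluster's barcodes, and none was among its leading genes. In ND its members, 5.18% of all members, held only 7.01% of the members' dendritic UMIs, at 417 CPM against 1665 in kept barcodes of the cluster, and 23.0% of its barcodes had Scrublet doublet scores among the highest 6%.

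**Figure D5:**
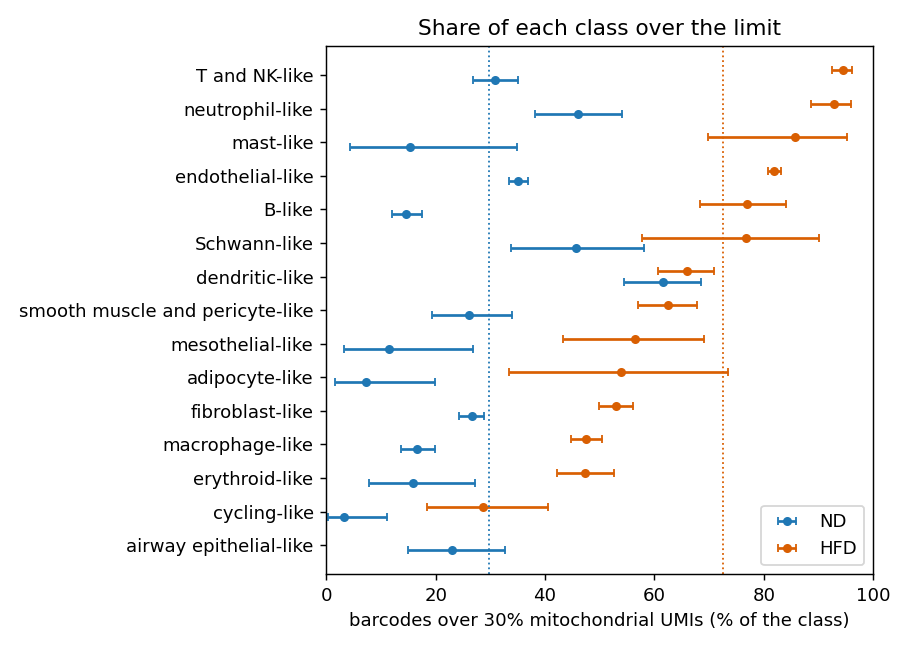
Percent of the barcodes of each named class that lay over 30% mitochondrial UMIs (horizontal axis), 1 row per class, in ND and HFD, with exact 95% intervals for counting error and a dotted line at the value of each whole library, 29.8% and 72.5%. T and NK-like and neutrophil-like barcodes lie right of the dotted line in HFD, at 94.5% and 92.9%, and cycling barcodes lie left of it in both, at 3.23% and 28.6%.

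Clusters of 1 class differed as much as the classes did. The Mcf2l-led endothelial-like cluster shares Cldn5 and the capillary genes Car4 and Gpihbp1. Of it, 96.5% of 604 ND barcodes and 99.9% of 1318 HFD barcodes were members, with a median of 360 and 455 non-mitochondrial UMIs per member. The Tmem182-led capillary cluster had 37.9% of 962 and 96.5% of 1805. The Cytl1-led cluster, which also holds Vwf, Gja5 and Bmx of arterial lining, had only 11.0% of 400 and 27.9% of 222, and the Cxcl9-led one, with genes of the interferon response, 3.75% and 31.9%. Among fibroblast-like clusters, the Gpx3-led one had 95.6% of 225 and 95.5% of 200, with a median of 331 and 373 non-mitochondrial UMIs per member. It held 215 of the 380 fibroblast-like members in ND and 191 of the 536 in HFD. Of its barcodes, 33.4% had Scrublet doublet scores among the highest 6%. The Pi16-led one had 12.5% of 464 and 33.2% of 437. Among macrophage-like clusters, the Plac8-led one, which also holds the monocyte gene Ly6c2, had 18.75% of 80 and 71.9% of 128. The Retnla-led one had 15.9% of 403 and 45.1% of 681. Names of the Plac8-led and Spp1-led ones rest on the level of the macrophage list, with no listed marker among their leading genes. A cluster made nearly only of members may be set by their depth as much as by cell type, and these cannot be told apart here.

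Within the endothelial-like clusters as 1 class, members differed from kept barcodes mainly by lower genes. Of 7728 genes, 9 (0.116%) were past 2-fold higher and 212 (2.74%) lower in both libraries. Among the 5 genes furthest below were Gxylt2, Ahnak2, Sfrp1 and Prrt4, with log2 ratios from -3.53 to -3.81 in ND and from -3.53 to -4.05 in HFD. In ND members Prrt4 rested on 1 UMI, with an interval of -9.09 to -1.27, and Ahnak2 on 3 UMIs, with an interval of -6.08 to -2.24. Sfrp1, a secreted inhibitor of Wnt signals, stood at 29.8 against 344 CPM in ND and 41.2 against 543 in HFD. Cytl1 had -2.94 (-3.18 to -2.71) and -2.67 (-2.79 to -2.55), and Vwf -1.13 and -3.09. Among the 5 genes furthest above were Gpx3, Col1a1, Gm26870 and C3, with ratios from 1.10 to 2.43 in ND and from 1.27 to 2.002 in HFD. Gpx3 encodes a secreted peroxidase, C3 a complement protein and Col1a1 a collagen chain of fibroblasts.

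Fewer genes were past 2-fold when the clusters with genes of arterial lining were left out. With the Cytl1-led and Stc1-led clusters left out, a choice made after the data were seen, 984 ND members were compared with 1543 kept barcodes and 3292 HFD members with 562. Members and kept barcodes came largely from different clusters. The Cxcl9-led cluster gave 925 of the kept barcodes in ND and 498 in HFD, but only 36 and 233 of the members. The part of this make-up in the ratios below was not tested. Of 6370 genes, 18 (0.283%) were then past 2-fold higher and 2 (0.0314%) lower in both libraries. The lower ones were Plvap, the protein of endothelial fenestrae, at 27.5 against 67.4 CPM in ND and 12.1 against 39.8 in HFD, and Wdcp, at 22.0 against 64.8 and 51.8 against 112. The higher ones were the collagen and matrix genes Col3a1, Col1a2, Dcn and Mgp, the secreted proteins C3, Timp2, Igfbp4 and Igfbp5, the fibroblast marker Pi16, the haemoglobin genes Hba-a1, Hba-a2, Hbb-bs and Hbb-bt, the antigen presentation genes H2-Aa, H2-Ab1, H2-Eb1 and Cd74, and Lyz2. Several of them, such as Mgp, Igfbp4 and Cd74, are also known from endothelial cells. The fibroblast list stood at 805 against 212 CPM in ND and 483 against 208 in HFD there, the erythroid list at 678 against 180 and 3154 against 1146, and the airway list at 1699 against 328 in ND. The endothelial list itself had ratios of 0.12 (0.09 to 0.14) and 0.16 (0.14 to 0.18). Members of these clusters held a median of 569.5 and 951.5 non-mitochondrial UMIs against 2662 and 4170.5 in kept barcodes, and the part of this depth in the ratios was not tested. In the Tmem182-led cluster alone, 0 of 2631 genes (0.0%) were past 2-fold in either direction in both libraries. There, 365 ND members were compared with 597 kept barcodes, and 1742 HFD members with only 63. Fewer genes reached the minimum of UMIs, so this count covers a smaller set of genes.

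Between the libraries, ratios of HFD over ND in members are given beside those in kept barcodes, with no test of any. Of 9182 genes, 218 (2.37%) were past 2-fold higher and 186 (2.03%) lower in HFD members than in ND members. The 5 genes furthest above ND were Hbb-bt, Gpnmb, Hbb-bs, Alas2 and Hba-a2. Hbb-bs, a chain of adult haemoglobin, stood at 820.1 CPM in ND members and 11379 in HFD members, a log2 ratio of 3.79 (3.72 to 3.87), against 2.85 in kept barcodes. Gpnmb, a glycoprotein of lipid-laden macrophages, stood at 8.63 and 158 CPM, a log2 ratio of 4.19 (3.49 to 5.00), against 4.62. Among the 5 genes furthest below were Scgb3a1, Ltf, Jchain and Igkc. For Jchain and Igkc, which plasma cells use for secreted antibody, members had log2 ratios of -4.23 and -3.59, where kept barcodes had -0.08 and -0.15. Scgb3a1 of the airway had -7.85 in members and -8.61 in kept barcodes.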

How the data were processed

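Single-cell RNA sequencing gave 1 library per diet, each deposited as a table of UMI counts per gene and barcode. The authors made these raw counts with Cell Ranger and did not normalize them, and the file headers give a software version of 3.0.1. The submitters' processing notes also name bcl2fastq, UMI-tools, Seurat 3.2.0, R 4.0.0 and mm10, without roles. Of 31053 gene IDs, 31011 matched GENCODE M21 on GRCm38. Members, gene lists and comparisons were chosen with earlier results of these data known.

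UMIs of non-mitochondrial genes were summed per library over members (over 30% mitochondrial UMIs) and kept barcodes, and scaled to 1000000 such UMIs (CPM). Genes with at least 100 UMIs over both sets in each library were compared, with a call at 2-fold. Log2 ratios are members over kept barcodes. Intervals are exact, conditional binomial for ratios and Clopper-Pearson for shares. Members held 1853321 (ND) and 8482506 (HFD) non-mitochondrial UMIs, which sets the precision.

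Barcodes with at least 200 genes were clustered on non-mitochondrial genes with Seurat 5.3.0 in R 4.3.3 (2000 variable genes, integration, 30 of 50 components, resolution 0.9). Integration, components and resolution follow the study's methods, whereas the inclusion of members, the exclusion of mitochondrial genes and the number of variable genes were chosen here. A cluster took the class with the most fixed markers among its 10 leading genes, or else the class with the highest summed ratio. This rule was written after the clusters were seen. Scrublet in scanpy 1.11.5 called 127 ND and 0 HFD barcodes (0.719%) as doublets, too few to be of use, so none were removed and the highest 6% of scores were left out as an alternative. Named genes are the 13 mitochondrial genes, the 10 largest rises and falls, 5 and 5 within endothelial-like clusters and between diets, the 5 with the most UMIs, up to 4 per list with the most UMIs, and Pecam1, Cdh5, Ptprc and Apoe. Genes outside this rule (Cytl1, Vwf, Cd36, Spp1 and leading genes of clusters) were chosen after their values were seen, and some genes that the rule selects are not reported here. Python 3.11.15, numpy 2.4.6, scipy 1.17.1, pandas 2.3.3 and matplotlib 3.10.9 were used. Only the log2 ratios of sums and their intervals were tested on simulated data.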

Additional observations from a re-analysis of the deposited data

Results flagged for a closer look

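The adipocyte list differed in sign between the libraries, with a log2 ratio of members over kept barcodes of -1.67 in ND and 0.48 in HFD. The difference was not tested. Outside the adipocyte-like cluster, which held 38 ND kept barcodes, the list was higher in members of both libraries, at 258 against 115 CPM in ND and 326 against 164 in HFD. Barcodes with under 200 genes, which enter no comparison above, held much erythroid RNA, at 53.1% of their non-mitochondrial UMIs in ND and 76.6% in HFD.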

How the results depend on the processing

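No paired analysis was possible because each diet has 1 library and nothing was tested. The number of members was 4183 in ND at a limit of 20%, 1045 in ND and 3826 in HFD at 50%, 1053 in ND with at least 500 genes, and 4668 and 11364 without a minimum of genes. Genes higher in both libraries numbered 67 with members over 50%, 41 with all UMIs as denominator, 235 with at least 20 UMIs and 44 with equal weight for each barcode, and lower ones 960, 322 and 91 under the last 3. Of the 120 higher and 160 lower genes, 25 and 76 were also called with members over 50%, and 33 and 62 with equal weight. Lists past 2-fold in the same direction in both libraries numbered 5, and 2 with equal weight. With members over 50%, ND ratios were opposite in sign for the neutrophil list (-0.68), Il1f9 (-0.19), Trem1 (-0.32) and Gm5483 (-0.23). The endothelial-like share of members in ND and HFD was 51.3% and 58.6% at resolution 0.4, 46.9% and 50.6% at 1.5, 53.1% and 49.9% without integration, and 44.5% and 47.2% with at least 500 genes. Within endothelial-like clusters, without the highest 6% of Scrublet scores 138 genes were lower, and with at least 500 genes 3 were higher. Added after the data were seen, leaving out the Cytl1-led and Stc1-led clusters gave 18 higher and 2 lower, and the Tmem182-led cluster alone gave 0 and 0. Causes were not tested. Over all alternatives, 95 of 96 list values past 2-fold kept their sign and 83 stayed past 2-fold, as did 314 and 307 of 317 values of named genes. Many values still moved outside the counting interval of the main result. Of all list values, 234 moved outside it, 161 stayed within it and 1 reversed. For named genes these numbers were 81, 233 and 3. For shares of classes other than the endothelial-like one, 25 moved and 35 stayed. Depth limits genes with under 30 UMIs in members, such as Prrt4.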
